A study of Mus musculus with 24 samples.

Results

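The collagen genes of mouse pluripotent and germ-line cells were measured on Affymetrix mouse genome arrays. A gene was counted as a collagen where its symbol in the array annotation consists of Col, a number, the letter a and a number. This rule found 42 of the 18193 genes that have a probe set of their own, and these 42 genes carried 82 probe sets. They comprise 11 fibrillar collagens, 8 collagens of basement membranes and 23 others. All cells were of the strain C57BL/6. There were 24 arrays in 12 groups of 2. RNA for 6 of the groups was hybridised unamplified, and RNA for the other 6 was amplified through 22 cycles of PCR from 5 ng, which corresponds to 500 cells. Unamplified groups were embryonic stem cells (ESCs) in feeder-free 2i+LIF culture, epiblast-like cells (EpiLCs) induced from them for 1, 2 or 3 days, epiblast stem cells (EpiSCs) taken from the epiblast of embryonic day 5.75, and, as counterparts of germ cell precursors, PGC-like cells (PGCLCs) made from the EpiLCs of day 2. Amplified groups were ESCs, day 2 EpiLCs, EpiSCs, PGCLCs, embryonic epiblast of day 5.5 to 6, and embryonic primordial germ cells (PGCs) of day 9.5. For EpiSCs the medium and any feeder layer, and for PGCs and PGCLCs the way of isolation, are not stated in the sources used here. The replicates are called biological, with no word on separate cultures or litters, so p-values reflect the spread between these arrays, which may be technical.

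Collagens are extracellular proteins built from alpha chains that wind around each other in a triple helix. Fibrillar collagens assemble into the banded fibrils of mesenchyme, bone, tendon and cartilage. Type IV collagens form the sheet-like network of basement membranes, on which epithelia such as the epiblast rest, and the germ cells of the mouse embryo leave that epithelium and migrate through mesenchyme. The other collagens decorate fibrils, form beaded filaments or anchoring fibrils, or span the cell membrane.

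Values are intensities on a linear scale as the authors deposited them. Intensities of different genes come from different probes and were not compared with each other. The filter level is the 40th percentile of the intensities, 28.1 on unamplified and 24 on amplified arrays, and a gene entered the test when 2 or more of the 12 arrays of that kind passed it. Of the 42 collagens, 34 were tested unamplified, 36 amplified and 33 in both ways, and 5 in neither. Differences were fitted with limma and are given as log2 differences ± standard error with n = 2 arrays per group. A gene is said to have risen or fallen if its Benjamini-Hochberg adjusted p, over every gene tested, is under 0.05 and its log2 difference is 1 or more in size. If both arrays of the dimmer group are no brighter than the filter level, the fold is a lower bound taken against it. The labels were checked against markers. The summed intensity of 5 ESC markers was highest in ESCs, and that of 7 germ cell markers in PGCLCs and PGCs. That of 5 EpiLC and epiblast markers was highest in EpiLCs and the epiblast. Of 5 EpiSC markers, Foxa2 and Cer1 exceeded the filter level in EpiSCs and rose against day 2 EpiLCs on both kinds of array. Otx2 fell on unamplified arrays (log2 difference -1.5), and Fgf5 and Pou5f1 were not called. The 5 summed to 6300 to 6570 in unamplified EpiSCs and 7380 to 7430 in ESCs. Foxa2 also exceeded the filter level in the epiblast and PGCs (means 42.8 and 26.6). Klf4 lay below that level on the amplified arrays of EpiLCs, epiblast, PGCLCs and PGCs. Replicates correlated across genes with r from 0.975 to 0.991 on unamplified arrays and from 0.957 to 0.972 on amplified arrays, except for r = 0.911 in amplified EpiSCs.

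Promoter windows, the 250 bases before a start site, were given for 33 of the 42 genes in RefSeq's table for the build GRCm38.p6. The windows of Col1a2 and Col3a1 are shown because these fibrillar genes had the largest differences between EpiSCs and EpiLCs while their windows differ in composition. The Col1a2 window is chr6:4505368-4505617, plus strand, with 62% G and C. The Col3a1 window is chr1:45311288-45311537, plus strand, with 35.2% G and C. Capitals mark the motifs searched on both strands. They were the TATA box core TATAAA, the CCAAT box and the GC box GGGCGG.
Col1a2: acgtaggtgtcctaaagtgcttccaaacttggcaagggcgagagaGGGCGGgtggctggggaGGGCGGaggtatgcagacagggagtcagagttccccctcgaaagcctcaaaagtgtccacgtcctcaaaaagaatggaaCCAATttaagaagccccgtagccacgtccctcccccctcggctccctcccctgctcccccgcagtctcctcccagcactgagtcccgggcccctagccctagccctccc
Col3a1: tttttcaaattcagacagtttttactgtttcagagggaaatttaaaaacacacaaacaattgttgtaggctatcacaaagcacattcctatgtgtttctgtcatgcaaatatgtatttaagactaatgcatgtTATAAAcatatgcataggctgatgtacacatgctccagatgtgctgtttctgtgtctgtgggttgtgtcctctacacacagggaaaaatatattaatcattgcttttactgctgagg

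The Col1a2 window held 2 copies of GGGCGG and 1 of CCAAT and no TATAAA, and the Col3a1 window held 1 TATAAA and neither of the others. Over all 36 windows of the 33 collagens, GGGCGG was present in 21, against 32.7% of 32851 windows in the table. CCAAT was present in 13 of the 36, against 33.8%, and TATAAA in 5, against 12.4%. The motifs do not overlap in letters, and a match is a description of the sequence. The median share of G and C was 59% over the collagen windows and 52.4% over all windows. Some collagens are neighbours. Col4a1 and Col4a2 lie on chromosome 8 and are transcribed away from each other, with start sites at positions 11312826 (minus strand) and 11312805 (plus strand). Col4a5 and Col4a6 lie 1274 bases apart on the X chromosome, and Col3a1 and Col5a2 lie 24624 bases apart on chromosome 1.

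**Figure D1:**
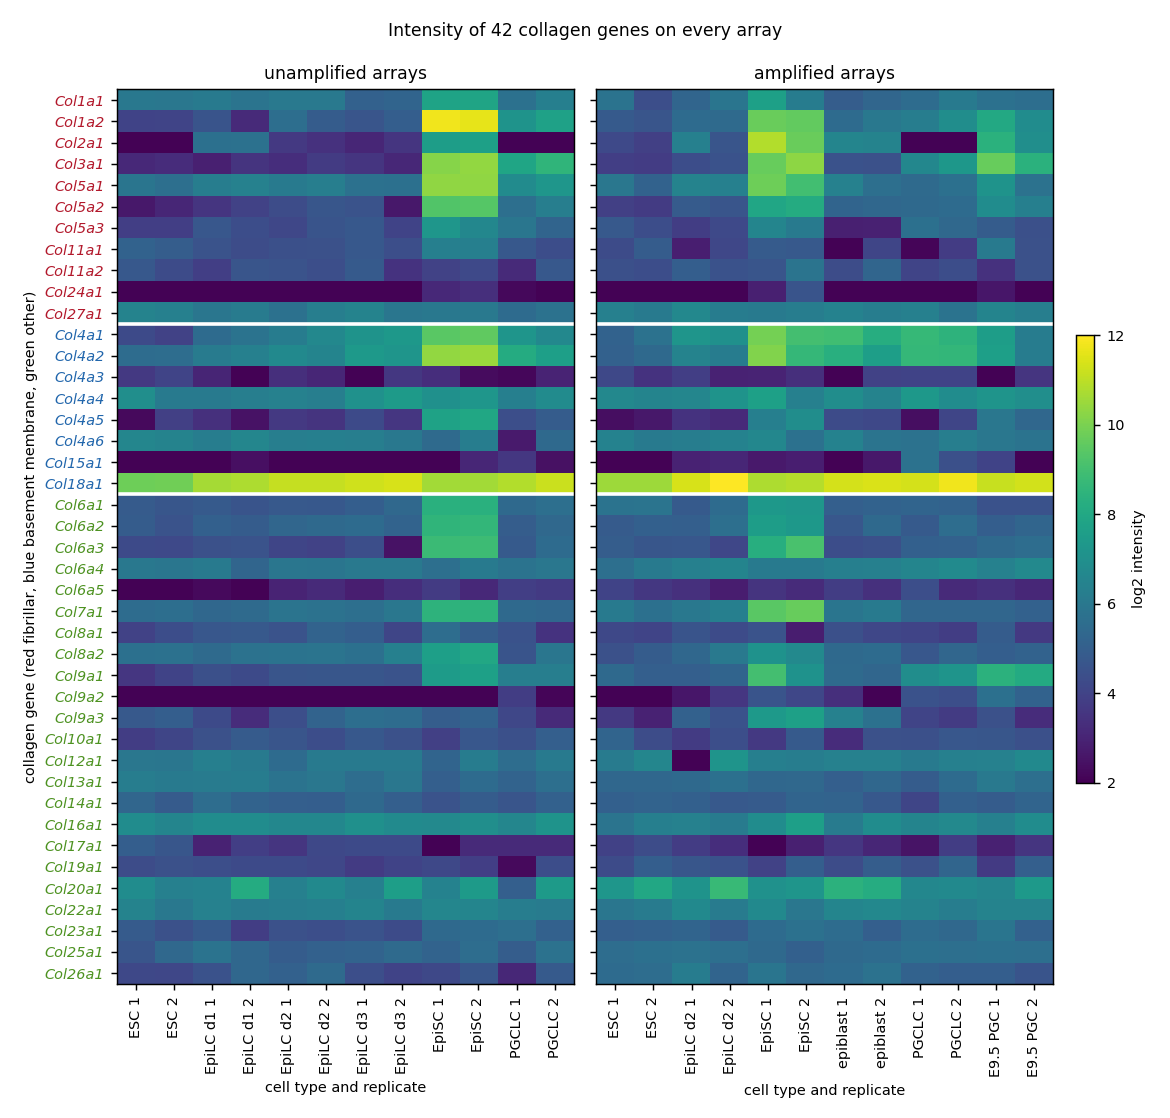
Log2 intensity of all 42 collagen genes (rows, fibrillar at the top, basement membrane in the middle, other below) on each of the 12 unamplified (left) and 12 amplified (right) arrays, with values under 4.2 raised to 4.2. Both EpiSC arrays stand out in the fibrillar rows Col1a2 to Col5a2, and Col18a1 is bright on every array.

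More collagens had their highest group mean in EpiSCs than in any other group. On unamplified arrays, 20 of the 34 tested collagens had their highest group mean in EpiSCs, and for 18 of them both EpiSC arrays exceeded every other array.
On amplified arrays the counts were 19 of 36 and 16. The shares of all genes with these patterns are not given here. The comparison of EpiSCs with day 2 EpiLCs sets a line derived from the epiblast beside cells made in culture to resemble the epiblast. On unamplified arrays 18 of 34 collagens rose in EpiSCs and 0 fell, where 18.9% of all 14934 genes tested changed, 12.4% rising and 6.44% falling. On amplified arrays 16 of 36 rose and 0 fell, where 12.5% of all 15608 genes changed, 8.61% rising and 3.86% falling. The genes called were largely shared: 15 rose on both kinds of array, which is 83.3% of the unamplified and 93.8% of the amplified calls. The overlap of calls over all genes is not given. The median log2 difference of the collagens tested was 1.4 on unamplified and 1.3 on amplified arrays, against 0.02 and 0.03 over all genes. In RNA from many cells, fewer cells of a type and less RNA per cell cannot be told apart.

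Fibrillar collagens rose most widely. On unamplified arrays 8 of the 9 tested rose in EpiSCs, with a median log2 difference of 4.08. Col1a2, the alpha 2 chain of type I collagen, read 3510 and 3210 in EpiSCs and 48.7 and 30.1 in day 2 EpiLCs. The groups lie far apart, with both EpiLC arrays near the filter level. The log2 difference was 6.45 ± 0.40 (adjusted p = 2.56e-07), a fold of 87.6. Col3a1, which forms type III fibrils beside type I in soft tissues, read 1170 and 1320 in EpiSCs and 10 and 13.4 in day 2 EpiLCs. The EpiLC arrays were below the filter level, so the difference of 6.74 ± 0.30 (adjusted p = 2.66e-08) corresponds to at least 44.1-fold.

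Type V collagens, which nucleate fibrils and limit their width, moved with them. Col5a1 read 1290 and 1280 in EpiSCs against 68.2 and 76.6 in day 2 EpiLCs, a difference of 4.15 ± 0.16 (adjusted p = 8.26e-09). Col5a2 read 616 and 664 against 20.2 and 25.5, a difference of 4.82 ± 0.50 (adjusted p = 1.28e-05), at least 22.8-fold. Col5a3 read 154 and 98.7 against 17.3 and 24.3 (2.59 ± 0.35, adjusted p = 0.000103), at least 4.39-fold. None of these groups overlapped. Other probe sets gave 0.44 and 5.71 for Col5a1, 1.7 for Col5a2 and, below the filter level, -0.43 for Col5a3. With the mean of its probe sets Col5a3 lost the call on both kinds of array. The cartilage collagens Col2a1 and Col11a1 also rose on unamplified arrays, by at least 6.96-fold and at least 2.84-fold (log2 differences of 4.08 ± 0.27 and 1.86 ± 0.24). Col27a1 was the fibrillar gene tested that did not change (0.03), with 64.7 and 66.1 in EpiSCs and 53 and 77.4 in day 2 EpiLCs.

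On amplified arrays Col1a2, Col2a1, Col3a1, Col5a1, Col5a2 and Col5a3 rose as well. Col1a2 read 845 and 769 in amplified EpiSCs and 45.3 and 43.4 in day 2 EpiLCs, a difference of 4.18 ± 0.39 (adjusted p = 0.000138). Col3a1 read 826 and 1270 against 20.8 and 22.7, a difference of 5.56 ± 0.41 (adjusted p = 3.77e-05), at least 42.7-fold. Col2a1 read 1840 and 845 against 81.1 and 25.2, a difference of 4.78 ± 0.61 (adjusted p = 0.000814). Here the first array of each group was the higher. Col5a1, Col5a2 and Col5a3 rose by 2.96 ± 0.48, 3.27 ± 0.26 and 2.31 ± 0.32 (Col5a3 at least 3.34-fold), so that 6 of 10 fibrillar collagens rose. Whether amplification altered the difference was tested as an interaction, which called 0 of 33 collagens by limma, against 0.295% of all genes. For Col1a2 the amplified difference was smaller by 2.27 ± 0.60 on the log2 scale (adjusted p = 0.147).

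**Figure D2:**
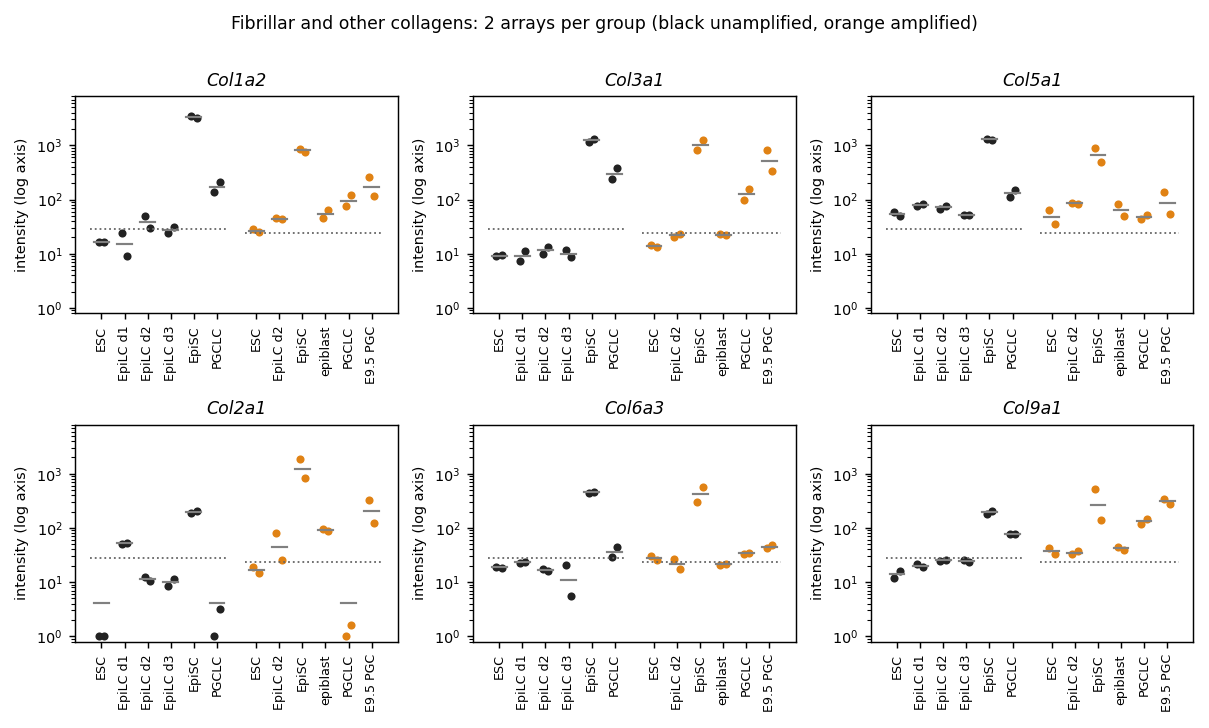
Intensity (log axis) of 4 fibrillar and 2 other collagens on each array, unamplified in black and amplified in orange; grey bars are group means of log2 values with low values raised to 4.2, and the dotted line is the filter level. In every panel both unamplified EpiSC arrays exceed the other unamplified arrays. Col1a2, Col3a1, Col6a3 and Col9a1 also exceed day 2 EpiLCs in PGCLCs and the epiblast in PGCs, and of these Col3a1 and Col9a1 were called each time.

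Type I collagen is made of chains from Col1a1 and Col1a2, and the probe sets of Col1a1 disagreed. The probe set representing Col1a1 read 223 and 229 in EpiSCs and 65.3 and 65.8 in day 2 EpiLCs on unamplified arrays, a difference of 1.78 ± 0.19 (adjusted p = 1.85e-05). The other probe set of the gene was listed at 1 on both day 2 EpiLC arrays and read 521 and 609 in EpiSCs. It also read 123 and 159 in PGCLCs, where the representing probe set read 53.4 and 79.3. The representing probe set gave a difference of -0.01 between PGCLCs and day 2 EpiLCs. On amplified arrays that other probe set did not exceed 31.2. Of 72 differences from other probe sets of genes that changed, 62 had the sign of the representing one, and of the 52 with signal above the filter level 51 did. The exception was a probe set of Col5a1, with -0.44 in amplified EpiSCs minus day 2 EpiLCs, where the representing one gave 2.96.

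In basement membrane collagens the rise in EpiSCs was confined to 3 of the 6 tested, Col4a1, Col4a2 and Col4a5, on both kinds of array. Col4a1 and Col4a2 encode the chains of the widespread type IV network. Col4a1 read 694 and 764 in unamplified EpiSCs and 73.3 and 103 in day 2 EpiLCs, a difference of 3.07 ± 0.22 (adjusted p = 8.07e-07). Col4a2 read 1330 and 1440 against 107 and 90.1, a difference of 3.82 ± 0.16 (adjusted p = 1.86e-08). Col4a5, whose chain occurs in specialised basement membranes, read 219 and 251 against 12.5 and 11.4 (4.30 ± 0.51, adjusted p = 3.47e-05), at least 8.36-fold. The groups did not overlap for any of these genes. On amplified arrays Col4a1 read 964 and 521 against 148 and 128, a difference of 2.36 ± 0.48 (adjusted p = 0.0108). Col4a2 read 1110 and 405 there against 89.5 and 72.9, a difference of 3.05 ± 0.54 (adjusted p = 0.00543). Col4a5 read 78.7 and 119 against 11 and 9.09 (3.27 ± 0.52, adjusted p = 0.0029), at least 4.02-fold. The Col4a1 call on amplified arrays was lost without either EpiLC array, with differences of 2.47 and 2.26, and with another probe set of the gene, with 1.24.

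The other 3 members tested did not pass both thresholds. Col4a6, the neighbour of Col4a5, read 44.3 and 74.5 in unamplified EpiSCs and 76.8 and 79.2 in day 2 EpiLCs. Col18a1, whose protein carries the endostatin fragment, read 1550 and 1570 against 2240 and 2240. Its difference of -0.52 passed the threshold on p and not that on size. Col4a4 read 129 and 154 against 83.3 and 76.6, without overlap, and its difference of 0.82 ± 0.26 (adjusted p = 0.0226) likewise passed on p alone.

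**Figure D3:**
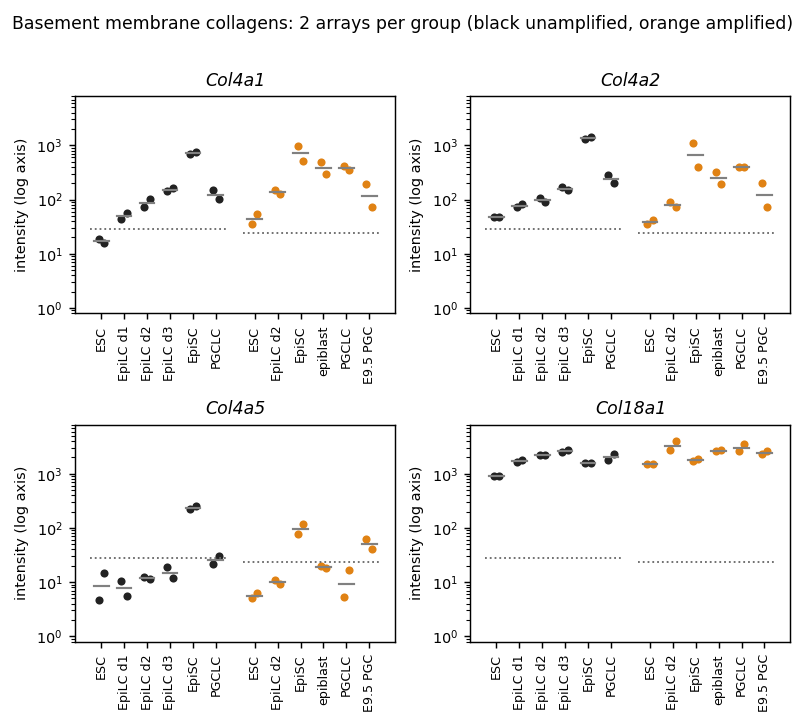
Intensity (log axis) of 4 basement membrane collagens on each array, unamplified in black and amplified in orange; grey bars are group means of log2 values with low values raised to 4.2, and the dotted line is the filter level. Col4a1 runs from 19 and 15.8 in ESCs to 142 and 160 in day 3 EpiLCs, and Col18a1 stays far above the filter level in every group.

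Among the other collagens, 7 of 19 tested rose in EpiSCs on unamplified and 7 of 20 on amplified arrays. All 3 classical chains of type VI collagen, which forms beaded filaments around cells, were among them. Col6a3 read 449 and 468 in unamplified EpiSCs and 17.1 and 15.9 in day 2 EpiLCs, a difference of 4.80 ± 0.48 (adjusted p = 9.46e-06), at least 16.3-fold. Col6a1 read 324 and 324 against 27.5 and 26.9 (3.58 ± 0.20, adjusted p = 1.42e-07), at least 11.5-fold. Col6a2 read 376 and 389 against 39.2 and 43.3, a difference of 3.21 ± 0.21 (adjusted p = 4.52e-07). The arrays of a group lay close together for all 3 genes. On amplified arrays Col6a3 read 306 and 564 against 26.2 and 17.5, and the differences of Col6a3, Col6a1 and Col6a2 were 4.28 ± 0.33, 2.14 ± 0.27 and 2.10 ± 0.36. Col6a4 did not change, with 50.3 and 69.7 in unamplified EpiSCs and 60 and 59.7 in day 2 EpiLCs.

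Col7a1, the collagen of the anchoring fibrils under stratified epithelia, read 355 and 351 in unamplified EpiSCs and 58.3 and 53.9 in day 2 EpiLCs, a difference of 2.65 ± 0.16 (adjusted p = 2.48e-07). On amplified arrays it read 700 and 808 against 63.5 and 80.7, a difference of 3.39 ± 0.24 (adjusted p = 3.63e-05). The groups did not overlap on either kind of array. Col9a1, a fibril-associated chain of cartilage, read 180 and 206 in unamplified EpiSCs against 24.6 and 25.6 (2.94 ± 0.21, adjusted p = 8.5e-07), at least 6.86-fold. Its amplified EpiSC arrays read 521 and 138 against 32.5 and 37.3, a difference of 2.95 ± 0.50 (adjusted p = 0.0042). Col8a2, a short-chain network collagen, rose by 1.99 ± 0.37 on unamplified and 1.22 ± 0.33 on amplified arrays. Its amplified call (adjusted p = 0.0378) was lost without either EpiSC array, with 1.04 and 1.41, and without the first EpiLC array, with 0.86.

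Genes called on one kind of array alone were few. Col9a3, a partner chain of Col9a1, read 169 and 208 in amplified EpiSCs and 34.7 and 23.2 in day 2 EpiLCs, a difference of 2.72 ± 0.45 (adjusted p = 0.00389). On unamplified arrays it read 30.5 and 35.6 against 21.4 and 36, a difference of 0.25. The difference between these effects was 2.48 ± 0.64 and missed the threshold (adjusted p = 0.137). Col23a1, a transmembrane collagen, changed on unamplified arrays alone, by 1.02 ± 0.34 (adjusted p = 0.0259), at least 1.57-fold. It lost the call without any 1 of the 4 arrays compared, with values from 0.97 to 1.07, and after median centring or quantile normalization, with 0.95 and 0.96. Col12a1, which decorates fibrils in dense connective tissue, gave -0.12 ± 0.32 with its representing probe set, which read 37 and 73.1 in EpiSCs. Another of its probe sets read 163 and 175 in unamplified EpiSCs and 4.66 and 2.92 in day 2 EpiLCs.

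Markers of fibroblasts were also higher in EpiSCs. Of 19 fibroblast markers without collagens that were measured, 16 were tested, and 13 of these rose on unamplified and 8 on amplified arrays, with 0 falling. Postn rose at least 15.4-fold, Lum at least 12.1-fold and Pdgfra at least 5.82-fold on unamplified arrays. The summed intensity of the 19 markers was 14400 to 14700 in unamplified EpiSCs and 3360 to 3400 in day 2 EpiLCs. On amplified arrays it was 6320 to 10300 and 1910 to 2010. In EpiSCs 16 of the 19 exceeded the filter level on an array, while Fap, Dpt and Ogn did not. The part of such cells in the collagen differences was not tested.

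**Figure D4:**
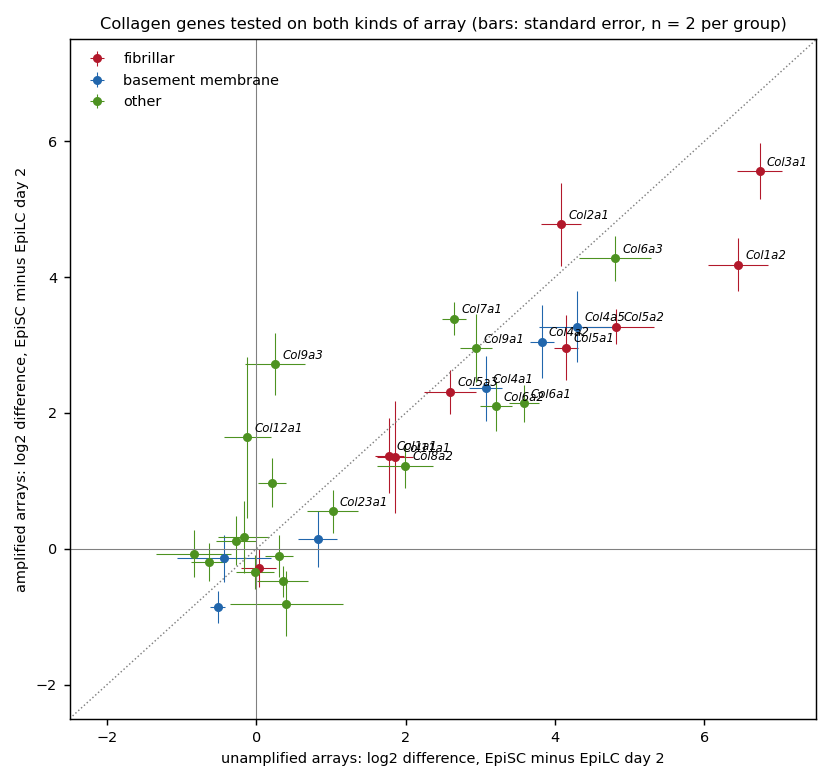
Log2 difference between EpiSCs and day 2 EpiLCs for each collagen tested on both kinds of array, unamplified on the x axis and amplified on the y axis, with class shown by colour. Col3a1 is the point farthest to the right, at 6.74 unamplified and 5.56 amplified, and Col9a3, at 0.25 and 2.72, lies above the others of its x range.

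Enzymes and chaperones that make collagen rose beside it. Of 24 genes of collagen biosynthesis and processing tested, 13 rose in EpiSCs on unamplified and 7 on amplified arrays, and 0 fell. Serpinh1, the collagen chaperone HSP47, read 5280 and 5290 in unamplified EpiSCs and 521 and 577 in day 2 EpiLCs, a difference of 3.27 ± 0.10 (adjusted p = 1.61e-09). P4ha1, a catalytic subunit of prolyl 4-hydroxylase, read 2330 and 2410 against 491 and 487, a difference of 2.28 ± 0.14 (adjusted p = 2.1e-07). Bmp1, which trims procollagen, read 309 and 292 against 17 and 26.8 (3.81 ± 0.59, adjusted p = 0.000237), at least 10.7-fold. None of these groups overlapped. Plod2, a lysyl hydroxylase, rose by 1.57 ± 0.20 and 2.04 ± 0.43 on the respective arrays, and Lox, the crosslinking lysyl oxidase, gave 0.25 ± 0.09 and -0.59 ± 0.49 and was not called. On amplified arrays the differences of Serpinh1, P4ha1 and Bmp1 were 1.25 ± 0.27, 3.00 ± 0.45 and 4.12 ± 0.41. Of 12 partners of collagen in basement membranes, 8 rose on unamplified and 5 on amplified arrays, among them Nid1 (2.94 and 3.35), which links laminin to type IV collagen, and Pxdn (1.96 and 2.25), the peroxidasin that crosslinks it. Of 6 collagen receptors tested, Itgb1 alone rose on unamplified arrays, by 1.86 ± 0.13, and 0 on amplified arrays.

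These directions were checked under other scalings. Quantile normalization shifted the all-gene median from 0.02 to -0.105 on unamplified and from 0.03 to -0.102 on amplified arrays. On amplified arrays the split of all genes that changed moved from 1344 higher and 603 lower to 1127 and 824. The collagens that changed were all higher in EpiSCs under either scaling, with 17 and 17 on unamplified arrays and 16 and 15 on amplified arrays after centring and after quantile normalization.

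EpiSCs were also set against the epiblast itself, the tissue they are derived from, on amplified arrays. Of 36 collagens, 13 rose in EpiSCs and 0 fell, where 11.7% of all genes changed and 8.97% rose. The comparison shares its EpiSC arrays with the one above. Col3a1, Col6a3 and Col1a2 had the largest differences. Col3a1 read 826 and 1270 in EpiSCs and 22.9 and 22.1 in the epiblast (5.51 ± 0.41, adjusted p = 5.52e-05), at least 42.7-fold. Col6a3 read 306 and 564 against 20.7 and 21.9 (4.29 ± 0.33, adjusted p = 6.52e-05), at least 17.3-fold. Col1a2 read 845 and 769 against 45.3 and 64, a difference of 3.90 ± 0.39 (adjusted p = 0.000221). All 3 genes were separated by far more than the gap between replicates. Col2a1 read 1840 and 845 against 94 and 87.8, a difference of 3.78 ± 0.61 (adjusted p = 0.00327). Col7a1 read 700 and 808 against 59 and 70.4, a difference of 3.54 ± 0.24 (adjusted p = 3.81e-05).

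Col4a1 and Col4a2 did not pass the test here. Col4a1 read 486 and 298 in the epiblast, against 964 and 521 in EpiSCs (0.90 ± 0.48, adjusted p = 0.283). Col4a2 read 320 and 197 against 1110 and 405 (1.42 ± 0.54, adjusted p = 0.127). The arrays did not overlap for either gene. With the replicate number as a block, 17 collagens rose in place of 13, and Col4a2 was among those gained (adjusted p = 0.0419), with Col1a1 (1.81, adjusted p = 0.0433), Col9a2 (1.65, adjusted p = 0.0477) and Col9a3 (1.49, adjusted p = 0.0157). Col4a5 rose by 2.36 ± 0.52, at least 4.02-fold, and Col5a1, Col5a2 and Col5a3 by 3.36 ± 0.48, 2.75 ± 0.26 and 3.44 ± 0.32 (Col5a3 at least 3.34-fold). The Col4a5 call was lost without the second EpiSC array (2.06) or either epiblast array (2.42 and 2.30), that of Col8a2 (1.45) without the first EpiSC array (1.26) or either epiblast array (1.39 and 1.5), and that of Col9a1 (2.68) without the second epiblast array (2.62).

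Biosynthesis genes rose here too, 10 of 24 with 0 falling, and 6 of 24 after quantile normalization, which moved the split of all genes that changed from 1400 higher and 423 lower to 1141 and 571. Basement membrane partners rose in 7 of 12 cases, and after quantile normalization 4 rose and 1 fell. Fn1, fibronectin, rose by 3.04 ± 0.30 and Lamb2, a laminin chain, by 2.53 ± 0.36. Fibroblast markers rose in 9 of 16 cases, and 9 of the 19 measured exceeded the filter level in the epiblast, with summed intensities of 1970 to 2080 there. Their part in the result was not tested.

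The induction of EpiLCs from ESCs was followed day by day on unamplified arrays. Basement membrane and fibrillar genes accounted for all the rises by day 2, with 3 of each. The 3 fibrillar calls, of Col1a2, Col2a1 and Col5a2, were lost with values raised to the 40th percentile. By day 2, 6 of 34 collagens had risen and 0 had fallen, where 16.5% of all genes changed and 8.96% rose and 7.5% fell. Col4a1 read 19 and 15.8 in ESCs, 44.6 and 55.8 at day 1, 73.3 and 103 at day 2 and 142 and 160 at day 3. Each day lay above the one before it without overlap. Day 2 exceeded ESCs by 2.32 ± 0.22 (adjusted p = 7.2e-06), at least 3.09-fold. Col4a2 read 46.7 and 47.5 in ESCs, 71.9 and 81.3 at day 1, 107 and 90.1 at day 2 and 167 and 150 at day 3. It climbed in the same order from a level that was above the filter in ESCs. Its rise to day 2 was 1.06 ± 0.16 (adjusted p = 0.000279), and the call was lost without the first day 2 array (0.94).

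Col18a1 followed the same order. It read 894 and 909 in ESCs, 1620 and 1760 at day 1, 2240 and 2240 at day 2 and 2500 and 2720 at day 3. Day 2 exceeded ESCs by 1.31 ± 0.10 (adjusted p = 1.1e-06), a fold of 2.49. On amplified arrays Col18a1 was the 1 of 36 collagens that rose to day 2, where 8.51% of all genes changed and 4.27% rose. It read 1480 and 1490 in ESCs and 2700 and 4010 in EpiLCs there (1.15 ± 0.24, adjusted p = 0.0138). The call was lost without the second EpiLC array (0.87) or either ESC array (1.15). Col4a1 read 34.9 and 54.6 against 148 and 128 on amplified arrays, a difference of 1.66 ± 0.48 that missed the threshold (adjusted p = 0.0659) and passed it with the replicate block (adjusted p = 0.0245), as did Col9a3 (1.52, adjusted p = 0.0175), giving 3 calls. The test of amplification as an interaction called 0 of 33 collagens for this step, against 0.852% of all genes.

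Single days added little. From ESCs to day 1, 2 collagens rose and 1 fell, where 12% of all genes changed, 5.65% rising and 6.38% falling. From day 1 to day 2, 1 rose and 1 fell, where 8.04% changed, 5.26% rising and 2.78% falling. From day 2 to day 3, 0 of 34 changed by limma, where 4.26% of all genes did. Of the 34, 6 had an unadjusted p under 0.05, for which the share over all genes is not given. Col4a2 (0.69 ± 0.16, adjusted p = 0.00977), Col4a1 (0.80 ± 0.22, adjusted p = 0.0218) and Col4a4 (0.92 ± 0.26, adjusted p = 0.0252) passed on p in that last step and not on size. Col9a3, the 1 gene that fell from ESCs to day 1 (-1.14 ± 0.40, adjusted p = 0.0436, at least 1.06-fold lower), read 27.9 and 31.6 in ESCs and 18.9 and 9.59 at day 1, close to the filter level. It lost the call without the second day 1 array (-0.66) or either ESC array (-1.23 and -1.05). Of all 14 settings run on it, 11 lost the call, quantile normalization and the replicate block among them, with values from -1.63 to -0.09 over the settings. Col1a2, the gene that rose from day 1 to day 2 (at least 1.36-fold), lost its call without the first day 2 array (1.02) or the second day 1 array (0.67).

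Col2a1 had a course of its own. It was listed at 1 on both ESC arrays, read 51 and 53.6 at day 1, 12.5 and 10.7 at day 2 and 8.41 and 11.6 at day 3. Only the day 1 arrays exceeded the filter level. The rise to day 1 was 3.64 ± 0.27 (adjusted p = 1.88e-06), at least 1.86-fold, and the fall to day 2 was -2.18 ± 0.27 (adjusted p = 0.000157), at least 1.86-fold. Its call between ESCs and day 2 (1.46), and that of Col5a2 (1.65), compare groups below the filter level, so no fold is given. Col1a2 rose to day 2 by 1.23 ± 0.40 from ESCs (adjusted p = 0.0251), at least 1.36-fold, from 16.3 and 16.4 to 48.7 and 30.1. That call was lost without the first day 2 array (0.89) or either ESC array (1.23), and so was that of Col5a2 without either day 2 array (1.82 and 1.48) or the first ESC array (1.44). Between ESCs and day 2 another probe set of Col5a2 gave 0.18. The other probe sets of Col1a2, below the filter level, gave 0.25 and 0.

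Between ESCs and day 2 EpiLCs, 1 of the 12 basement membrane partners rose and 6 fell on each kind of array. The log2 difference of Lama1 was -4.37 on unamplified and -4.42 on amplified arrays, at least 14.2-fold lower on each, and that of Nid1 was -3.85 and -4.99. Pxdn rose by 3.68 ± 0.13 and 3.25 ± 0.35, from 32.3 and 35 in ESCs to 437 and 423 at day 2 on unamplified arrays. Among biosynthesis genes 5 rose and 5 fell on unamplified arrays. The prolyl hydroxylase genes P3h2 (at least 1.60-fold), P4ha2 (log2 difference 2.04) and P4ha1 (1.70) rose with Serpinh1 (1.67), while Pcolce (-2.63), an enhancer of procollagen cleavage, fell with Pcolce2 (-1.79). On amplified arrays 1 rose and 2 fell.

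Day 2 EpiLCs were compared with the epiblast they are made to resemble. Of 36 collagens 0 changed by limma, where 0.961% of all genes did, 0.654% rising and 0.308% falling. The share over all genes is not given for an unadjusted p under 0.05, which 4 collagens had. Those were Col5a3 (1.13 ± 0.32), Col4a1 (-1.47 ± 0.48), Col4a2 (-1.64 ± 0.54) and Col9a3 (-1.24 ± 0.45). Col4a1 read 148 and 128 in EpiLCs and 486 and 298 in the epiblast (adjusted p = 0.277). Col4a2 read 89.5 and 72.9 against 320 and 197 (adjusted p = 0.279). The arrays of these 2 genes did not overlap, and the first epiblast array was the brighter for both. Markers of visceral and parietal endoderm were higher in the same epiblast arrays. Of 16 endoderm markers 4 fell in EpiLCs relative to the epiblast and 0 rose, among them Apoa1 (at least 9.97-fold lower) and Cubn (log2 difference -4.13). Their summed intensity was 4080 in the first and 1940 in the second epiblast array and 712 to 792 in EpiLCs. Their part in the collagen values was not tested. Among the basement membrane partners Lama1 fell, at least 8.21-fold.

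PGCLCs are made from day 2 EpiLCs, and this step was measured on both kinds of array. On unamplified arrays 6 of 34 collagens rose and 4 fell, where 20.6% of all genes changed, 8.78% rising and 11.9% falling. On amplified arrays 4 of 36 rose and 1 fell, where 12.7% changed, 6.47% rising and 6.25% falling. The 5 genes of the amplified call, Col2a1, Col3a1, Col4a2, Col5a3 and Col9a1, were all called on unamplified arrays, where they make up 50% of the calls. How far calls overlapped over all genes is not given. The median collagen difference was 0.06 and -0.02 on the 2 kinds of array.

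Col3a1 had the largest rise. It read 235 and 374 in unamplified PGCLCs and 10 and 13.4 in EpiLCs (4.67 ± 0.30, adjusted p = 2.98e-07), at least 10.5-fold. On amplified arrays it read 99.6 and 156 against 20.8 and 22.7 (2.52 ± 0.41, adjusted p = 0.00316), at least 5.18-fold. PGCLCs were separated from EpiLCs on both kinds of array, and the effects differed by -2.15 ± 0.53 without passing the test (adjusted p = 0.0696). Col9a1 read 77.7 and 77.7 in unamplified PGCLCs against 24.6 and 25.6 (1.63 ± 0.21, adjusted p = 6.45e-05), at least 2.77-fold. Col4a2 read 281 and 199 against 107 and 90.1, a difference of 1.27 ± 0.16 (adjusted p = 5.83e-05). Col5a3 rose by 1.21 ± 0.35 on unamplified and 1.52 ± 0.32 on amplified arrays, at least 1.69-fold and 1.93-fold. Col1a2 read 140 and 214 in unamplified PGCLCs against 48.7 and 30.1 (2.17 ± 0.40, adjusted p = 0.000743), and 76.1 and 121 against 45.3 and 43.4 on amplified arrays, where it did not pass (adjusted p = 0.0919).

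Several of these calls were lost when 1 array was left out. On amplified arrays Col4a2 (2.30 ± 0.54, adjusted p = 0.0195) and Col9a1 (1.92 ± 0.50, adjusted p = 0.0306) lost the call without any 1 of the 4 arrays, with values of 2.15 to 2.45 and 1.79 to 2.06. Col5a3 lost it without the first PGCLC array (1.35) or the first EpiLC array (1.33) there, and on unamplified arrays without the same arrays (0.86 and 0.96). Unamplified Col5a2 rose by 1.47 ± 0.50, at least 2.24-fold, and lost the call without the second PGCLC array (1.16) or either EpiLC array (1.30 and 1.64). With the replicate block on amplified arrays 7 collagens changed in place of 5, the added ones being Col4a1 (1.48, adjusted p = 0.029) and Col20a1 (-1.27, adjusted p = 0.0414).

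Col2a1 fell. It read 1 and 1.63 in amplified PGCLCs and 81.1 and 25.2 in EpiLCs, both above the filter level of 24 (-3.43 ± 0.61, adjusted p = 0.00481), at least 1.88-fold lower. On unamplified arrays both groups lay below the filter level, with 1 and 3.24 in PGCLCs. Both Col2a1 calls were lost with values raised to the 40th percentile, which left -0.91 on amplified arrays. The other falls on unamplified arrays rested on dim or single arrays. Col4a6 read 6.59 and 42.3 in PGCLCs against 76.8 and 79.2 (-2.22 ± 0.63, adjusted p = 0.0117) and lost the call without the first PGCLC array (-0.88) or either EpiLC array (-2.25 and -2.20). Col26a1 read 8.59 and 28.3 against 34 and 43.6 (-1.30 ± 0.50) and lost it without the same arrays (-0.44, -1.48 and -1.12). Col9a3 read 17.5 and 9.05 against 21.4 and 36 (-1.14 ± 0.40) and lost it without the second PGCLC (-0.67) or second EpiLC array (-0.77). Of all settings run, 11 of 15 lost the Col26a1 call and 7 of 14 the Col9a3 call, with quantile normalization among them for both.

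Partner genes split in this step. On unamplified arrays 3 of the 12 basement membrane partners rose and 2 fell, and on amplified arrays 3 rose and 1 fell, with Fn1 (1.42 and 2.00) and Nid1 (1.47 and 3.22) higher and Lama5 (-1.51 and -1.64) lower on both. Of the collagen receptors Itga1, the alpha subunit of an integrin that binds collagen, rose at least 5.68-fold and 5.75-fold, and Ddr1, a receptor tyrosine kinase for collagen, fell, with -2.39 and -3.20. Of 24 biosynthesis genes 1 rose and 1 fell on unamplified arrays, and 0 rose and 1 fell on amplified arrays. Of 16 fibroblast markers 5 rose and 5 fell on unamplified arrays, with Postn (at least 2.42-fold) and Pdgfra (at least 2.39-fold) higher and Thy1 (at least 4.40-fold) lower, and 2 rose and 4 fell on amplified arrays. Their summed intensity was 3080 to 3140 in unamplified PGCLCs and 957 to 1190 in amplified PGCLCs. Of 10 endothelial markers 4 rose on unamplified and 6 on amplified arrays, with sums of 1490 to 1720 against 898 to 942 in unamplified EpiLCs, while Cdh5 lay below the filter level in PGCLCs. The part of either list in the collagen values was not tested.

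The step from the epiblast to PGCs is the embryonic counterpart. Of 36 collagens 6 rose in PGCs and 1 fell, where 10.5% of all genes changed, 6.11% rising and 4.36% falling. Fibrillar genes made up 4 of the 6. Col3a1 read 817 and 334 in PGCs and 22.9 and 22.1 in the epiblast (4.54 ± 0.41, adjusted p = 0.00013), at least 21.7-fold. Col9a1 read 342 and 278 against 43.8 and 39.8, a difference of 2.88 ± 0.50 (adjusted p = 0.00505). Col9a2, another chain of type IX, read 51.4 and 35.8 against 10.2 and 2.03 (2.71 ± 0.51, adjusted p = 0.00783), at least 1.78-fold. The third chain went the other way. Col9a3 read 22.2 and 9.66 in PGCs and 83.8 and 53.3 in the epiblast (-2.19 ± 0.45, adjusted p = 0.0126), at least 2.78-fold lower. Col1a2 read 260 and 115 against 45.3 and 64 (1.69 ± 0.39), Col5a2 116 and 79.8 against 37.3 and 40.6 (1.31 ± 0.26), and Col5a3 29.7 and 21.8 against 7.29 and 7.47 (1.79 ± 0.32), at least 1.06-fold.

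The first PGC array was the brighter for all 6 genes that rose. Without it Col1a2 (1.10), Col5a2 (1.03) and Col9a2 (2.45) lost the call, and Col1a2 (1.44 and 1.93) and Col5a2 (1.24 and 1.37) also lost it without either epiblast array, Col9a2 (2.07) without the second. Col9a3 lost it without the second PGC (-1.59) or first epiblast array (-1.86). Col5a3 lost it with values raised to the 40th percentile or with the mean of its probe sets, and its other probe set gave 0.67. Of 16 fibroblast markers 5 rose and 2 fell in PGCs, with Postn (at least 6.48-fold), Pdgfrb (at least 5.90-fold) and Twist1 (at least 4.90-fold) higher and Cthrc1 (log2 difference -4.06) and Thy1 (at least 3.23-fold) lower. Their sum was 2660 in the first and 1150 in the second PGC array, and 16 of the 19 exceeded the filter level in PGCs. Pdgfra read 219 and 74.9 in PGCs. The part of these cells in the collagen values was not tested. Of the biosynthesis genes 0 of 24 changed by limma.

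Col4a1 and Col4a2 were below the epiblast in mean without passing the test. Col4a1 read 192 and 73 against 486 and 298 (-1.68 ± 0.48, adjusted p = 0.0531), and Col4a2 198 and 72.5 against 320 and 197 (-1.07 ± 0.54, adjusted p = 0.286). With the replicate block 10 collagens changed in place of 7, the added ones being Col4a1 (adjusted p = 0.0195), Col6a3 (1.08, adjusted p = 0.0485) and Col20a1 (-1.35, adjusted p = 0.0385).

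**Figure D5:**
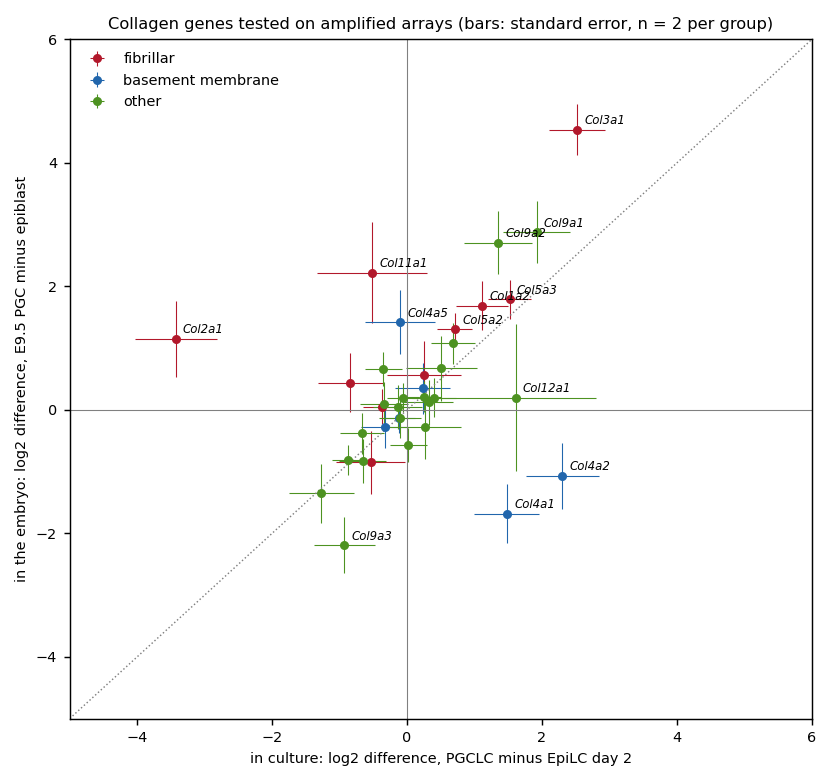
Log2 difference on amplified arrays for each collagen tested, PGCLCs minus day 2 EpiLCs on the x axis and PGCs minus epiblast on the y axis, with class shown by colour. Col3a1, Col5a3 and Col9a1 are higher in both steps, and Col2a1 (-3.43 and 1.15), Col4a1 (1.48 and -1.68) and Col4a2 (2.30 and -1.07) have opposite signs.

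The culture step and the embryonic step share no arrays. They shared 3 called collagens, Col3a1, Col5a3 and Col9a1, which is 60% of the 5 in culture and 42.9% of the 7 in the embryo. Col5a3 lost the call in both steps with values raised to the 40th percentile or with the mean of its probe sets. The share of calls in common over all genes is not given. The test of the difference between the steps called 0 of 36 collagens by limma, against 0.513% of all genes. The differences nearest the threshold were those of Col2a1 (-4.58 ± 0.86, adjusted p = 0.0618), Col4a1 (3.16 ± 0.68, adjusted p = 0.0911) and Col4a2 (3.37 ± 0.76, adjusted p = 0.103).

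PGCLCs were also compared directly with PGCs. Of 36 collagens 0 were higher and 3 lower in PGCLCs, where 2.9% of all genes changed, 1.56% being higher and 1.33% lower. An unadjusted p under 0.05 was found for 11 of the 36, and the share over all genes is not given for it. Col2a1 read 1 and 1.63 in PGCLCs and 331 and 123 in PGCs (-5.59 ± 0.61, adjusted p = 0.00198), at least 8.39-fold lower. Col4a5 read 5.22 and 16.8 against 62.7 and 40.7 (-2.43 ± 0.52, adjusted p = 0.0376), at least 2.10-fold lower. Col3a1 read 99.6 and 156 against 817 and 334, a difference of -2.07 ± 0.41 (adjusted p = 0.028). The Col2a1 difference held without any 1 of the 4 arrays. Col3a1 lost the call without either PGCLC array (-1.75 and -2.39) or the first PGC array (-1.42), and Col4a5 without the first PGCLC array (-1.59) or either PGC array (-2.12 and -2.74).

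Col4a1 and Col4a2, unlike Col4a5, were brighter in PGCLCs and did not pass the test. Col4a1 read 417 and 355 in PGCLCs and 192 and 73 in PGCs (1.70 ± 0.48, adjusted p = 0.115), and Col4a2 400 and 397 against 198 and 72.5 (1.73 ± 0.54, adjusted p = 0.158). With the replicate block 6 collagens changed in place of 3, with Col4a1 (adjusted p = 0.0444), Col4a2 (adjusted p = 0.0472) and Col5a2 (-1.12, adjusted p = 0.0313) added. Fibroblast markers fell in 4 of 16 cases in PGCLCs relative to PGCs and 0 rose, and endothelial markers rose in 5 of 10 cases, with sums of 2370 to 2700 in PGCLCs and 1150 to 1320 in PGCs. Their part was not tested. Of the biosynthesis genes 0 of 24 changed by limma.

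Several collagens had a narrow range on unamplified arrays. There Col16a1 stayed between 94.4 and 139, Col22a1 between 64.3 and 96.5 and Col27a1 between 45.4 and 89.4. On amplified arrays Col16a1 ranged from 58.3 to 201, Col22a1 from 60.9 to 108 and Col27a1 from 55.9 to 103. Col22a1 had a further probe set that read 67.9 and 71.3 in EpiSCs and 6.72 to 13.2 on the other unamplified arrays. On amplified arrays that probe set read 114 and 54.6 in EpiSCs and 4.35 to 13.5 elsewhere. Amplified Col12a1 read 1 and 145 on its 2 EpiLC arrays, so nothing can be read from that group. The 5 collagens tested on neither kind of array were Col15a1, Col17a1, Col24a1, Col4a3 and Col6a5. Col15a1, a basement membrane zone collagen, nevertheless read 54.9 on one amplified PGCLC array and 22 on the other. Col9a2 did not exceed 14.2 on any unamplified array. The representing probe set of Col8a1 read 10.9 to 48 on unamplified arrays, while its other probe sets ran from 1 to 186 and from 1 to 342.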

How the data were processed

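The values are intensities on a linear scale, 1 per probe set and array, as the authors deposited them in 1 table of 45101 probe sets. Neither software nor normalization is stated in the sources used here. No further scaling was applied, since array medians were alike (unamplified 41.1 to 49.2, amplified 36.2 to 40). The number of arrays limits the precision. Of the probe sets, 34945 had a single gene symbol. A gene was represented by its probe set of highest mean log2 intensity over the 24 arrays. Intensities under 4.2, the 10th percentile, were raised to it before log2 was taken. A mean per group was estimated by limma 3.58.1 (R 4.3.3) on each kind of array, with trended moderated variances and 6 residual degrees of freedom, for 14934 genes on unamplified, 15608 on amplified and 14553 on both kinds. Tests are two-sided. An exact permutation test of 2 arrays against 2 cannot go below p = 0.33. The scripts were tested on simulated data. Members and gene lists were chosen with earlier results of these data known. Values on every array are given for 14 fixed collagens and, per comparison and class, for up to 4 called collagens of largest difference whose arrays do not overlap; lists are shown by up to 4 called members and 6 fixed genes. Collagens and partners named beyond this were chosen after their values were seen. Arrays with the same replicate number deviated together on amplified arrays (residual correlation above 0.1 in 15 of 15 pairs of groups, median 0.37) and not on unamplified arrays (3 of 15, median 0.05), so a replicate block is given beside amplified results where it changes a call. Alternatives covered probe set choice, floor, scaling, filter, variance model, blocks and leaving out each array.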

Additional observations from a re-analysis of the deposited data

How the results depend on the processing

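Of 84 collagen calls over all comparisons, 43 held in every setting run, and over 1291 such settings 1144 kept the call and 147 lost it. The cause of the changes below was not tested, except where fewer arrays or a raised floor leave less to test. Raising values to the 40th percentile, which flattens dim genes, gave 3 calls for day 2 EpiLCs minus ESCs, 0 for day 1 minus ESCs, 0 for day 2 minus day 1, and 6 unamplified and 3 amplified calls for PGCLCs minus EpiLCs. Fitting only the 2 groups compared, with fewer residual degrees of freedom, gave 1 call for day 2 minus day 1, 1 for day 3 minus day 2, 10 for amplified EpiSCs minus EpiLCs, 4 for PGCs minus epiblast and 0 for PGCLCs minus PGCs, where no filter gave 1. The mean of all probe sets of a gene gave 1 call for day 2 minus day 1 and 1 for day 3 minus day 2, and the probe set with the highest single intensity, an alternative chosen after seeing the data, gave 1 for day 3 minus day 2.

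Probe set choice reversed some genes. These log2 differences depend on the floor where the other group lies near it, and are no bounds. With the highest single intensity Col12a1 gave 5.26 and Col26a1 1.06 in unamplified EpiSCs minus EpiLCs, Col1a1 5.06 in unamplified PGCLCs minus EpiLCs, Col22a1 3.52 in amplified EpiSCs minus EpiLCs, and Col12a1 3.59 and Col22a1 3.70 in EpiSCs minus epiblast. With the mean of probe sets Col12a1 gave 1.09, Col1a1 2.52 and Col22a1 1.70 and 1.82 in the same comparisons.

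The replicate block on amplified arrays, where arrays of the same replicate number deviated together, gave 3 calls for EpiLCs minus ESCs and 6 for PGCLCs minus PGCs. It lost no amplified collagen call. Leaving out 1 array gave, on unamplified arrays, 3 to 7 calls for day 2 minus ESCs, 2 to 3 for day 1 minus ESCs, 1 to 3 for day 2 minus day 1, 0 to 3 for day 3 minus day 2, 17 to 17 for EpiSCs minus EpiLCs and 6 to 10 for PGCLCs minus EpiLCs. On amplified arrays it gave 0 to 1 for EpiLCs minus ESCs, 15 to 16 for EpiSCs minus EpiLCs, 2 to 4 for PGCLCs minus EpiLCs, 0 to 1 for EpiLCs minus epiblast, 10 to 14 for EpiSCs minus epiblast, 4 to 6 for PGCs minus epiblast and 1 to 2 for PGCLCs minus PGCs. Raising values to the 40th percentile lost the unamplified Col23a1 call in EpiSCs and the Col2a1 calls during EpiLC induction. It also lost both Col2a1 calls for PGCLCs minus EpiLCs. The Col2a1 calls for EpiSCs minus EpiLCs held in every setting.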
